A study of Arabidopsis thaliana with 4 samples.

Results

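MYB, NAC, basic helix-loop-helix (bHLH), basic leucine zipper (bZIP) and homeobox (HB) proteins are transcription factors, grouped into families by a shared protein domain. The genes described here were chosen by name: every nuclear gene whose symbol is a family name followed by a number, with a probe set that carries that gene alone, BZIP60 left out. The rule found 19 genes among the 13356 genes with a probe set of their own. They are 13 bZIP genes, 5 bHLH genes and 1 NAC gene. No MYB or HB gene met it, although RefSeq lists 120 MYB and 28 HB symbols of that form, so genes with those symbols were not analysed here. RefSeq lists 79 NAC, 13 bHLH and 30 bZIP symbols, so NAC014 does not stand for its family.

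The RNA came from entire Arabidopsis thaliana seedlings of the Columbia ecotype and was read on 4 Affymetrix arrays. One group of 2 arrays holds seedlings that, at 15 days from germination, received GSH (reduced glutathione, the main soluble thiol of plant cells) for 72 hours. The other group of 2 arrays came from control seedlings of the same ecotype, with a stated age of 15 days. The dose of GSH and whether the controls were kept for the further 72 hours are not given in the sources used here, so age at harvest and treatment cannot be told apart. The labels call the replicates biological, and they do not say what was replicated (plants, plates or sowings).

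bZIP and bHLH proteins bind DNA as pairs, and a partner from the same family decides much of what a pair does. The bHLH genes chosen by the rule belong to the network that controls iron uptake in Arabidopsis. In this network group IVc factors and bHLH121 act upstream, and group Ib factors such as BHLH101 act below them. PYE and the coumarin genes are among its outputs. The bZIP genes fall into groups by sequence, among them group B (membrane-held factors of the endoplasmic reticulum stress response), group F (zinc and salt responses) and group S (small factors tied to energy supply, seeds and amino acid metabolism).

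Values are log2 expression per probe set after the authors' RMA normalization, and a difference is the mean of the GSH arrays minus the mean of the control arrays with limma's moderated standard error (SE, n = 2 arrays per group). A difference was called at an adjusted p under 0.05 with limma and Benjamini-Hochberg adjustment over all 22746 gene probe sets. A mean under 4.06, the limit of the lowest 25% of probe sets, is not shown to be above background. Each member had 1 probe set.

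The arrays differed in ways other than these genes. The probe set for 25S ribosomal RNA read 8.19 and 8.0 on the GSH arrays against 11.11 and 11.01 on the control arrays, and 11 of 27 probe sets for spiked-in Bacillus RNA were called, all of them lower (median difference -0.26, range -0.87 to 0.13). The part of these shifts in the results on the 19 genes was not tested. Leaf markers fixed for this work, 3 of 9 measured (RCA, LHCB4.1 and LHCB4.2), lay between 10.45 and 12.82 on all arrays. LHCB4.2 (-0.42) and RCA (-0.24) were called lower on the GSH arrays and LHCB4.1 (-0.21) was not called, and the part of this shift in the results was not tested either. The root markers, 3 of 6 measured (PYK10, EXPA7 and EXPA18), lay between 3.85 and 4.38, and limma called 0 of 3 (1 had an unadjusted p under 0.05). PYK10 lay in the lowest 25% of values. EXPA7 (mean 4.22) and EXPA18 (mean 4.27) lay just above the limit of 4.06. Root RNA is therefore not clearly shown by these markers. No embryo or flower marker was among the measured genes.

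Transcripts of the 19 genes changed in both directions, with a median size near that of all gene probe sets. Of the 19 genes 6 were called, 2 higher and 4 lower on the GSH arrays, which is 31.6% against 33.8% of all gene probe sets (16.2% called higher and 17.5% called lower). Over the 13356 genes with 1 probe set taken for each, 30.9% were called. The share of the 19 genes is near both backgrounds, so the count is no result about these families. NAC014, bHLH121, bZIP44 and BZIP61 fell, and BZIP24 and BZIP53 rose. None of the 19 differed by 2-fold without overlap of the groups (limma called 6, and 8 had an unadjusted p under 0.05). Of all probe sets 3.96% did, a share so small that none among 19 genes is no result about these families. The median difference was -0.04 over the 19 genes and -0.01 over all probe sets, and the median size was 0.15 against 0.16. The groups did not overlap for 11 of 19 genes (57.9%), beside 65.2% of all probe sets and 62.7% of genes with 1 probe set each. Without moderation of the spread across probe sets BZIP24 alone was called, so 5 of the 6 calls rest on the variance that limma shares between probe sets. In whole seedlings, fewer cells of a type and less RNA per cell cannot be told apart.

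**Figure D1:**
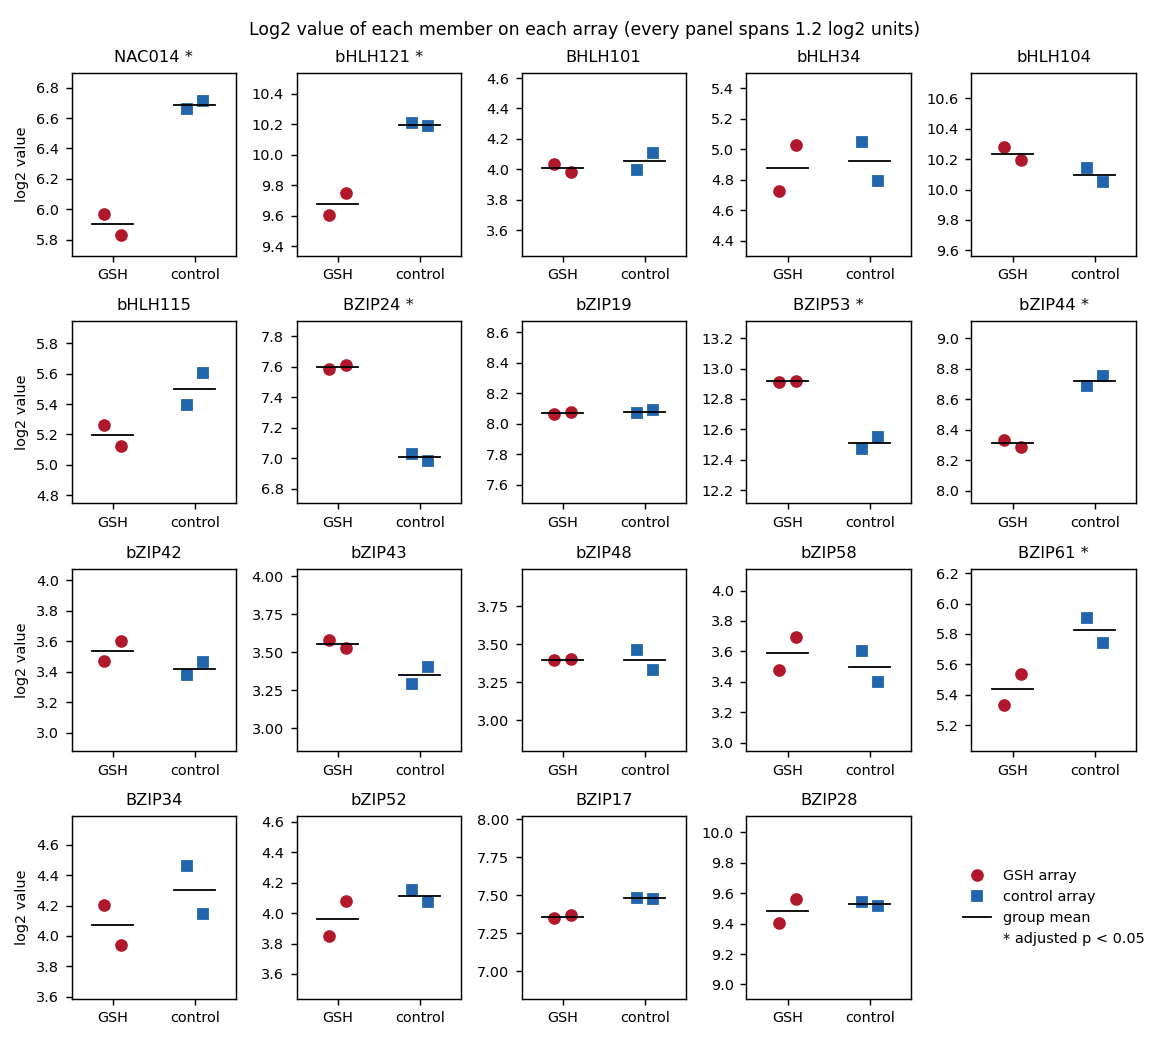
Log2 value of each of the 19 genes on the 2 GSH arrays (red circles) and the 2 control arrays (blue squares), with group means as black lines and every panel spanning the same range. The 6 genes with a star were called, and in all 6 the groups are apart, as for BZIP24 with 7.59 and 7.61 on the GSH arrays against 7.03 and 6.98 on the control arrays.

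**Figure D2:**
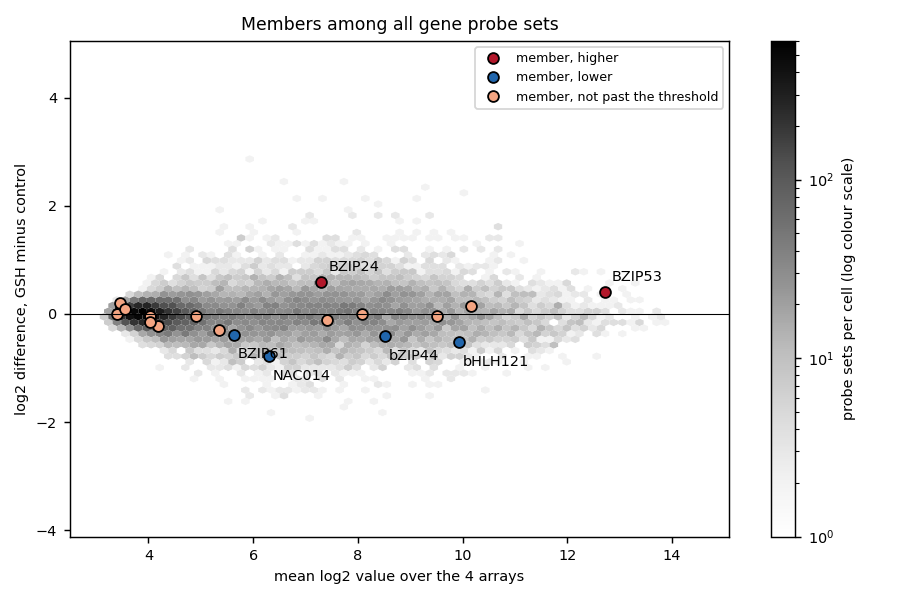
Difference (GSH minus control, log2 units) against the mean log2 value over the 4 arrays for all 22746 gene probe sets (grey cells, darker where more lie) with the 19 genes as points. The 6 called genes lie between -0.79 and 0.59, inside the cloud of all probe sets, and the dim members sit at its narrow left end.

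NAC014 showed the largest difference of the 19 genes. It is counted among the NAC factors with a membrane anchor, which are held outside the nucleus until they are cut free. Its log2 values were 5.97 and 5.83 on the GSH arrays, against 6.66 and 6.72 on the control arrays. Both GSH arrays lay well below both control arrays, and the arrays of a group differed by 0.14 (GSH) and 0.06 (control). It fell by 0.79 ± 0.08 log2 units (SE, n = 2 per group), a 1.72-fold lower level, with limma adjusted p = 0.000511. The difference ranged from -0.85 to -0.72 when each array in turn was left out, and it stayed past the threshold each time.

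Among the iron regulators bHLH121 fell while its group IVc partners were not called. bHLH121, also known as URI, pairs with group IVc factors to switch on iron uptake genes, and it gave 9.60 and 9.75 on the GSH arrays against 10.21 and 10.19 on the control arrays. The groups were apart by more than the gap within either. It fell by 0.52 ± 0.08 log2 units (SE, n = 2 per group), a 1.43-fold lower level, with limma adjusted p = 0.00282.

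Of the 3 group IVc members 0 were called by limma, and 1 had an unadjusted p under 0.05. That gene, bHLH115, read 5.26 and 5.13 on the GSH arrays and 5.39 and 5.60 on the control arrays. Its difference of -0.30 ± 0.10 was not called (limma adjusted p = 0.0518, 95% interval -0.53 to -0.07). Without control replicate 1 it was -0.41 and passed (limma adjusted p = 0.0251), and without control replicate 2 it was -0.20 (limma adjusted p = 0.24). bHLH104 read 10.28 and 10.19 on the GSH arrays and 10.14 and 10.05 on the control arrays, a difference of 0.14 ± 0.08 (limma adjusted p = 0.21, 95% interval -0.04 to 0.32). The differences of these related genes had opposite signs, though neither was called.

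bHLH34 was the most variable of the group. It read 4.73 and 5.03 on the GSH arrays and 5.05 and 4.79 on the control arrays. The groups overlapped (difference -0.04 ± 0.13). ILR3, the remaining group IVc factor (bHLH105), carries another symbol and is no member. It differed by -0.04 ± 0.07, with a 95% interval of -0.20 to 0.13. BHLH101, a group Ib factor that is strongly induced in iron-starved roots, read 4.04 and 3.98 on the GSH arrays and 4.0 and 4.11 on the control arrays, in the lowest 25% of values. Its difference of -0.04 ± 0.08 therefore says little about the gene.

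PYE and AT3G13610, known as outputs of this network, changed in opposite directions. A link of either change to these bHLH factors was not tested. PYE, the bHLH repressor that group IVc factors switch on, read 6.70 and 6.57 on the GSH arrays and 7.01 and 7.08 on the control arrays. It fell by 0.41 ± 0.08 log2 units (limma adjusted p = 0.00719). AT3G13610 (synonym F6'H1), the enzyme gene at the entry to the coumarins that roots release when iron is short, read 7.59 and 7.60 on the GSH arrays against 5.43 and 5.32 on the control arrays. Both GSH arrays were far above both controls, and the gene rose by 2.22 ± 0.07 log2 units, 4.66-fold, with limma adjusted p = 1.23e-05. Of the 29 genes on the fixed iron list 3 were measured, PYE, ILR3 and AT3G13610, so the uptake transporters and ferric reductases of the pathway were not analysed here.

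BZIP24 and bZIP19 are the measured members of bZIP group F, and 1 of the pair was called. BZIP24, known as a regulator of the salt response, read 7.59 and 7.61 on the GSH arrays and 7.03 and 6.98 on the control arrays. The arrays within a group agreed to 0.02 (GSH) and 0.04 (control). It rose by 0.59 ± 0.07 log2 units (SE, n = 2 per group), 1.51-fold, with limma adjusted p = 0.000953, and it was called under every alternative tried, including the one without moderation (adjusted p = 0.0446).

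bZIP19, a sensor of zinc shortage, had nearly the same value on every array. It read 8.07 and 8.08 on the GSH arrays and 8.07 and 8.09 on the control arrays. Its difference was -0.01 ± 0.07 (limma adjusted p = 0.959), with a 95% interval from -0.17 to 0.16. The interval of BZIP24, from 0.43 to 0.76, does not overlap it, but the difference between the 2 genes was not itself tested.

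In group S the bright members moved in opposite directions. BZIP53 activates seed maturation genes and the proline dehydrogenase gene as a partner of group C factors. It read 12.91 and 12.92 on the GSH arrays against 12.47 and 12.55 on the control arrays, and it rose by 0.40 ± 0.07 log2 units (SE, n = 2 per group), 1.32-fold (limma adjusted p = 0.00528). Array signals of very bright probe sets can be compressed, and its mean of 12.71 lies above 99.6% of all probe sets. bZIP44, a relative of the same branch with a known part in seed germination, read 8.33 and 8.29 on the GSH arrays and 8.69 and 8.75 on the control arrays. It fell by 0.41 ± 0.07 log2 units, 1.33-fold lower, with limma adjusted p = 0.00477.

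The other 4 group S genes, bZIP42, bZIP43, bZIP48 and bZIP58, all lay in the lowest 25% of values, with means from 3.40 to 3.54. Their differences ran from 0.00 to 0.20, and limma called 0 of 4 (1 had an unadjusted p under 0.05). That was bZIP43, at 3.58 and 3.53 on the GSH arrays and 3.29 and 3.41 on the control arrays (limma adjusted p = 0.0843). None of the 4 is shown to be expressed in these seedlings. The low-energy and amino acid list, genes that group S and group C pairs control, had 1 of 31 measured: MCCA, for a subunit of an enzyme of leucine breakdown, fell by 0.31 ± 0.07 log2 units with limma adjusted p = 0.0137. Its call was lost without control replicate 1 (adjusted p = 0.0672) and without GSH replicate 2 (0.062).

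Group E held BZIP34, which is needed for normal pollen walls, and its relative BZIP61. BZIP61 read 5.34 and 5.54 on the GSH arrays and 5.90 and 5.74 on the control arrays. The groups did not overlap, but arrays of a group differed by 0.20 (GSH) and 0.16 (control). It fell by 0.39 ± 0.10 log2 units (SE, n = 2 per group), 1.31-fold lower, with limma adjusted p = 0.0233, and this call was lost without control replicate 1 (adjusted p = 0.0953) or without GSH replicate 1 (adjusted p = 0.104). BZIP34 read 4.2 and 3.94 on the GSH arrays and 4.46 and 4.15 on the control arrays, with overlap between the groups (difference -0.23 ± 0.13, 95% interval -0.54 to 0.08).

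Transcripts of the membrane-held group B factors were not called. BZIP17 and BZIP28 are carried from the endoplasmic reticulum to the Golgi under folding stress and are set free there by proteolysis. BZIP28 read 9.41 and 9.56 on the GSH arrays and 9.54 and 9.51 on the control arrays, a difference of -0.04 ± 0.08 (limma adjusted p = 0.726, 95% interval -0.24 to 0.15). BZIP17 read 7.35 and 7.37 on the GSH arrays and 7.48 and 7.48 on the control arrays. The groups did not overlap, but the difference was -0.12 ± 0.07 (limma adjusted p = 0.235, 95% interval -0.28 to 0.04). Limma called 0 of the 2, and 0 had an unadjusted p under 0.05. bZIP52, the member in group I, lay among the lowest 25% of values, at 3.85 and 4.08 on the GSH arrays and 4.15 and 4.07 on the control arrays.

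**Figure D3:**
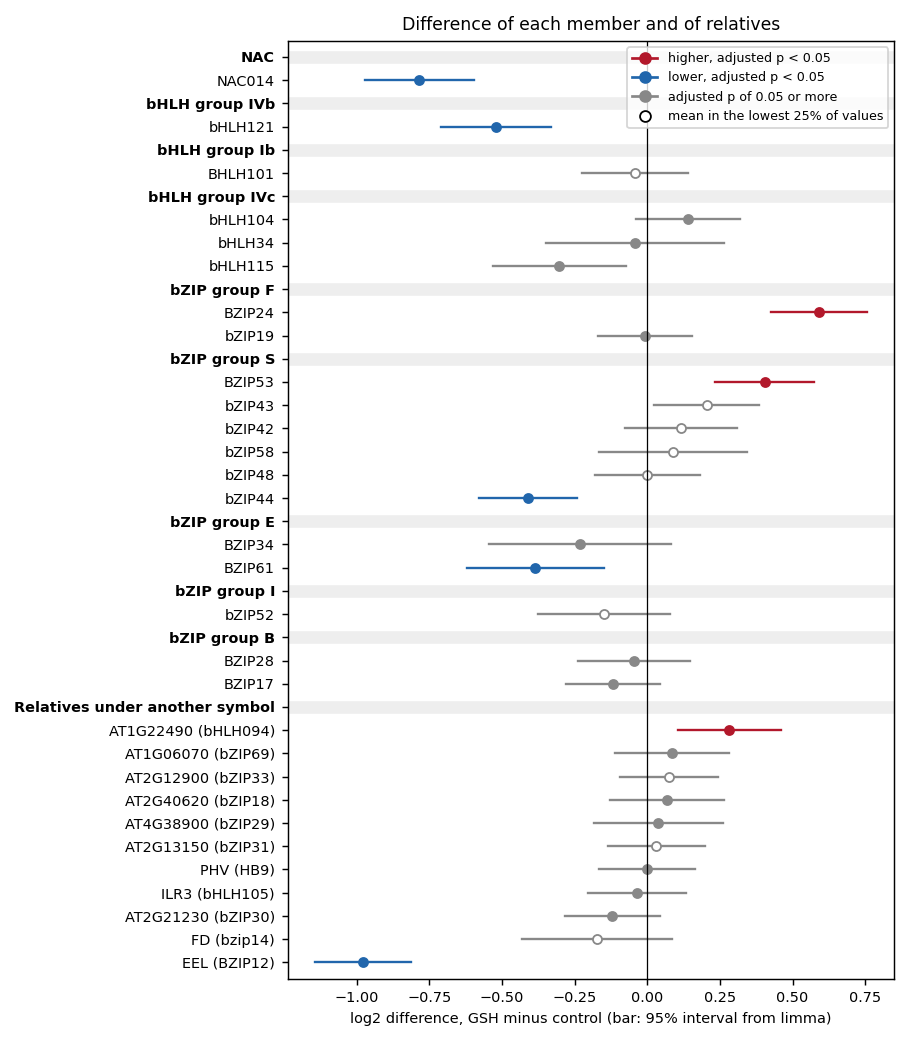
Difference (GSH minus control, log2 units) with its 95% interval from limma for the 19 genes by group and for 11 relatives that carry a family number as a synonym. Red marks genes called higher, blue genes called lower and grey the rest, and open circles have a mean in the lowest 25% of values, as 6 of the 19 genes do.

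All 6 calls fell among the brighter members. The 6 members with means in the lowest 25% had 0 calls by limma (1 had an unadjusted p under 0.05) and differences from -0.15 to 0.20. Of the 13 brighter members 6 were called, 46.2%, beside 43.8% of the 17059 gene probe sets above the same limit. The 7 brighter members without a call lay between -0.30 and 0.14.

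A further 11 genes carry a family number as a synonym under another RefSeq symbol, and 2 of them were called (18.2%, against 33.8% of all gene probe sets). They were found after the values of the members were seen. EEL (BZIP12), a group A factor that competes with ABI5 on seed genes, fell by more than any member. It read 5.50 and 5.47 on the GSH arrays against 6.49 and 6.44 on the control arrays, a fall of 0.98 ± 0.07 log2 units (limma adjusted p = 0.00013, and past the threshold under each alternative fit). AT1G22490 (bHLH094) rose by 0.28 ± 0.07 (limma adjusted p = 0.0254), a call lost without control replicate 1 (adjusted p = 0.14), without GSH replicate 1 (0.099) and without GSH replicate 2 (0.0623).

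None of the 6 group I relatives of bZIP52 was called, beside 33.8% of all gene probe sets. AT2G40620 (bZIP18), AT4G38900 (bZIP29), AT2G21230 (bZIP30), AT2G13150 (bZIP31), AT2G12900 (bZIP33) and AT1G06070 (bZIP69) differed by -0.12 to 0.09, and limma gave 0 of 6 an unadjusted p under 0.05. AT2G13150 and AT2G12900 lay in the lowest 25% of values. The groups did not overlap for AT2G21230 (-0.12) and AT2G12900 (0.07), 2 of the 6, beside 65.2% of all gene probe sets. FD (bZIP14), the partner of the flowering signal FT, lay in the lowest 25% of values and was not called. PHV (HB9), a homeobox gene of upper leaf identity, read 8.09 and 8.12 on the GSH arrays and 8.08 and 8.13 on the control arrays, with a 95% interval of the difference from -0.17 to 0.16.

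Another 11 genes of these families were picked by hand, not by a search of all measured genes. They are named for their roles or known by a synonym. Of these 11 genes 4 were called, 3 higher and 1 lower (36.4%, near the 33.8% of all gene probe sets). HYH, a bZIP factor that works beside HY5 in light responses, read 5.78 and 5.80 on the GSH arrays and 4.97 and 4.66 on the control arrays. It rose by 0.98 ± 0.11 log2 units (limma adjusted p = 0.00076). HAT2, an auxin-inducible homeobox gene, read 8.01 and 7.77 on the GSH arrays and 7.16 and 7.27 on the control arrays and rose by 0.67 ± 0.10 (limma adjusted p = 0.00259). The groups were apart in both genes.

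Of the 2 single-repeat MYB genes among the 11, 1 was called, too few to set against the 33.8% of all gene probe sets. AT5G47390 (KUA1), a factor of cell expansion, rose by 0.30 ± 0.07 (limma adjusted p = 0.02). Its call was lost without control replicate 1 (adjusted p = 0.0984), without control replicate 2 (0.0511) and without GSH replicate 2 (0.0888). The other, the trichome inhibitor TRY (-0.02), and the homeobox gene AT4G03090 (-0.22) were not called, and the first lay just above the low limit and the second below it. Of the 6 bHLH genes among the 11 PYE alone was called (16.7%). MYC3, a core jasmonate factor, differed by 0.09 ± 0.07, and the guard cell factor FMA by -0.20 ± 0.08 (limma adjusted p = 0.121). MYC4, SPCH and MUTE lay in the lowest 25% of values. These 11 genes were also chosen after values were seen.

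Of the 482 genes on 15 lists of partners and targets 46 were measured, and 15 of the 46 were called, 8 higher and 7 lower (32.6%, near the 33.8% of all gene probe sets). HYH, HAT2 and PYE are among the 15 and were counted above among the genes named for their roles, so these counts overlap. Without moderation of the spread 4 of the 15 kept their call (AT3G13610, UGT74B1, LTI30 and WRKY6) and 11 lost it. In the senescence list around NAC factors 1 rose and 3 fell of 5 measured. These 5 of 32 listed genes are too few to set against the 33.8% of all gene probe sets. WRKY53 fell by 1.60 ± 0.09, and EIN3, the ethylene factor above several senescence NAC genes, read 10.89 and 10.84 on the GSH arrays against 11.28 and 11.35 on the control arrays, a fall of 0.45 ± 0.07 (limma adjusted p = 0.00363). WRKY6 rose by 0.64 ± 0.07, and SAG101 fell by 0.29 ± 0.07, a call that held with every array but was lost without control replicate 2 (limma adjusted p = 0.1), without GSH replicate 1 (0.0701) and without GSH replicate 2 (0.0554).

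The next lists held 2 to 4 measured genes each, too few to set against the 33.8% called over all gene probe sets. In the light list HYH and HAT2 rose, 2 of 3. IAA29 (0.03) was not called, and it is not shown to be above background. Of 4 abscisic acid genes the dehydrin gene LTI30 fell by 1.09 ± 0.07, and COR47 (-0.19), COR15B (-0.12) and COR15A (0.08) were not called. COR15B and COR15A are not shown to be above background. COR47 had an unadjusted p under 0.05 (limma adjusted p = 0.104). Among the alternatives it passed only with an intensity trend in the prior (limma adjusted p = 0.00726). Of 4 jasmonate genes ORA47, a factor that turns on jasmonate synthesis, read 6.86 and 7.08 on the GSH arrays and 6.41 and 6.45 on the control arrays. It rose by 0.54 ± 0.09 (limma adjusted p = 0.00454). MYC3, MYC4 and PDF1.2 were not called, and MYC4 and PDF1.2 are not shown to be above background. Of 2 genes around TGA factors the glutaredoxin gene GRX480, whose protein binds these factors, rose by 0.67 ± 0.09 and ROXY1 (0.10) was not called.

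Of 7 genes of epidermis and stomata 1 was called, 14.3% beside 33.8% of all gene probe sets. It was STOMAGEN, for a peptide of the leaf mesophyll that promotes stomata. It read 3.83 and 3.63 on the GSH arrays and 4.65 and 4.83 on the control arrays, a fall of 1.01 ± 0.10 (limma adjusted p = 0.0005), with GSH values that are not shown to be above background. The stomatal factors FMA, MUTE and SPCH were not called, as given above, and neither were EXPA7 (-0.20) and EXPA18 (0.13). MUTE and SPCH are not shown to be above background, so their missing calls say little. Of 3 wax and suberin genes AT5G61590 (DEWAX), a repressor of wax synthesis, read 8.38 and 8.41 on the GSH arrays against 7.50 and 7.71 on the control arrays. It rose by 0.79 ± 0.09 (limma adjusted p = 0.00085). FACT (0.10) and WSD1 (-0.06) were not called, and neither is shown to be above background.

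The other lists on MYB targets held 2 to 4 measured genes each, too few to set against the share over all probe sets. Of 4 glucosinolate genes UGT74B1 rose by 0.97 ± 0.07, and AOP3 (0.14), GSTU20 (0.11) and BCAT4 (0.06) lay in the lowest 25% of values. Limma called 0 of 4 flavonoid genes (0 with an unadjusted p under 0.05), among them UGT78D2 (0.02), DFR (0.14) and BAN (0.07). It called 0 of 2 secondary wall genes (HCT at -0.18 had an unadjusted p under 0.05, and GUT2 stood at -0.10), and 0 of 2 meristem genes (PHV and CLV3, 0 with an unadjusted p under 0.05). The clock gene GI (-0.05) and the expansin gene EXPA8 (-0.06), the single measured genes of the clock and brassinosteroid lists, were not called. EXPA8 and CLV3 lay in the lowest 25% of values.

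**Figure D4:**
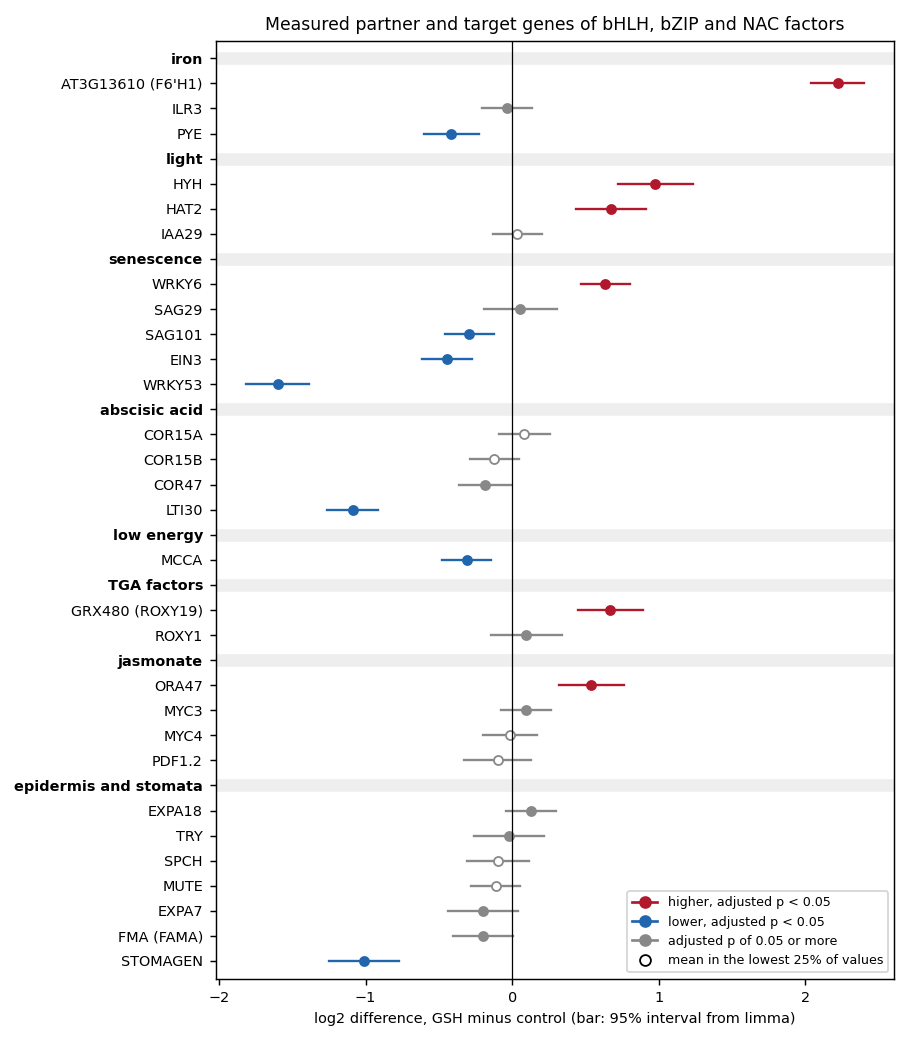
Difference (GSH minus control, log2 units) with its 95% interval from limma for the measured genes of 8 lists of partners and targets, with colours and open circles for called and dim genes as in the plot of member differences. AT3G13610 at 2.22 stands far to the right and WRKY53 at -1.60 far to the left, while most genes of the jasmonate and stomata lists have intervals that include 0.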

How the data were processed

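Expression was measured on 4 one-colour Affymetrix arrays, 2 per group, from biotin-labelled cRNA made from 6 µg of total RNA, per the labels' protocols. The authors deposited log2 values made with Affymetrix Expression Console and RMA, per the submitters' processing notes; versions and a genome build are not given in the sources used here. RMA includes quantile normalization, which hides any shift common to the bulk of the transcripts. No detection calls were used, and the number of arrays limits the precision. Groups and replicate numbers came from the titles. The free-text descriptions speak of embryos, against the tissue label, and were not used.

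Gene names are those of the platform annotation, brought up to date with RefSeq (TAIR10.1) through the gene identifiers. Of 22746 gene probe sets 13513 carried 1 gene, 503 several and 8730 none, and all 19 members matched a RefSeq gene. No coordinates are given, since the array's build is not named. The 64 control probe sets were left out.

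The difference was fitted in R 4.3.3 by limma 3.58.1 (functions lmFit and eBayes, 2 residual degrees of freedom, prior 4.55), adjusted by Benjamini-Hochberg over all gene probe sets. The fit was tested on simulated data.

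Members and lists were chosen with earlier results of these data known. Named were, per family, up to 4 increases and 4 decreases past the threshold, the 2 brightest members not past it, and up to 3 genes per list by smallest p. The other members are named so that all are accounted for, and further names were chosen after their values were seen. Of the list genes 40 matched by symbol and 6 by synonym, and a chitinase gene that shares the symbol of chalcone isomerase was left out.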

Additional observations from a re-analysis of the deposited data

How the results depend on the processing

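No called value changed sign under any alternative run. Limma called 6 members with the arrays centred on their medians (a shift of -0.02 between the groups), with quantile normalization repeated and with an intensity trend in the prior. Without moderation of the spread 1 member was called (1 higher, 0 lower; bZIP 1, bHLH 0, NAC 0), beside 1425 of all probe sets in place of 7680. With the lowest 25% of probe sets removed, 7 were called, with 2 bHLH members, because bHLH115 passed (adjusted p = 0.0437), and the medians were -0.12 over the members, -0.082 for bZIP and -0.17 for bHLH, where the dim members are left out. The bHLH median was -0.019 with centred arrays, and -0.04 as deposited. Leaving out each array in turn gave 5 to 6 members called, 1 to 2 of them bHLH, and medians of -0.10 to -0.00046 over the members, -0.060 to 0.0035 for bZIP and -0.19 to -0.069 for bHLH. With the replicate block 5 members were called and BZIP61 was lost (adjusted p = 0.0705). Same-numbered arrays shared only a number, with deviations that correlated at -0.10. The crossed replicate block, chosen after seeing the data, called 7 members, 2 of them bHLH. Each member had 1 probe set and no symbol carried a hyphen, so those alternatives changed nothing. Signs of 6 members that were not called, all near 0, changed under some alternative, as did those of uncalled list genes. Signal over background limits the 6 members in the lowest 25% of values.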
